A study of Mus musculus with 12 samples.

Results

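Cytokine signalling through the transcription factor STAT5 was followed here at the level of transcripts, through 10 genes chosen by name: the Janus kinases Jak1 and Jak3, the transcription factors Stat5a and Stat5b, the feedback inhibitors Cish, Socs1, Socs2 and Socs3, and the kinases Pim1 and Pim2. All 10 were found among the 55450 genes of the deposited table, and all 10 were among the 15361 genes that had enough counts to be tested. The libraries came from CD4+ thymus cells, and every mouse was CD4-Cre x Foxp3-GFP, so the Cre transgene and the Foxp3 reporter were common to all groups, and the labels name neither a floxed allele nor an age. There were 4 libraries of Eos+ Tregs, taken as Foxp3+ Ccr6+ Cxcr4+ cells, 4 of Eos- Tregs, taken as Foxp3+ Ccr6- Cxcr4- cells, and 4 of conventional T cells (Tconv), taken as Foxp3-. Tregs, or regulatory T cells, restrain other immune cells. Ikzf4 encodes Eos, a transcription factor of the Ikaros family. Eos itself was not sorted on: the 2 surface receptors stood in for it.

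Interleukin-2 and its relatives bind receptors that share the common gamma chain. JAK1, held by the cytokine-specific chain, and JAK3, held by the gamma chain, then phosphorylate STAT5A and STAT5B, which move to the nucleus and turn on target genes. Some of those targets, Cish and Socs family genes among them, encode proteins that dampen the receptor in turn. In Tregs this pathway is known to sustain Foxp3 and survival, and thymic Tregs are known for their dependence on interleukin-2.

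Library totals ran from 23.9 to 37.9 M expected counts. Levels are CPM, in which each count is taken relative to its library's total after scaling with a TMM factor, so they compare libraries but not genes of different length. Ikzf4 stood at 314 ± 17.5 CPM for Eos+ Tregs, 171 ± 12.7 for Eos- Tregs and 25.3 ± 2.22 for Tconv (SD, n = 4). Of the receptors sorted on, Ccr6 was 227 to 263 CPM in Eos+ and 10.4 to 19.7 in Eos- Tregs. Cxcr4 did not separate them, at 52.9, 25.2, 40.4 and 38 CPM against 22.7, 23.2, 42.3 and 26.8 in the libraries numbered 1 to 4 (edgeR adjusted p = 0.402). Foxp3 was at most 3.42 CPM in Tconv and 485 to 862 CPM in the Treg libraries numbered 2 to 4, but 55 and 53.3 CPM in the Eos+ and Eos- Treg libraries numbered 1. Counts of the members are therefore given also without the 3 libraries numbered 1. Libraries of the same number share a code in their names, and their deviations from the group means went together, so a fit with the number as a block is given beside each result it changes. The 6 CD4 T cell markers summed to 3560 to 3836 CPM for Eos+ Tregs, 4133 to 4412 for Eos- Tregs and 4829 to 5138 for Tconv. Against Tconv 5 of them were called lower in Eos+ Tregs, and 3 lower and 1 higher in Eos- Tregs. In Eos+ against Eos- Tregs 2 were called lower. Of all tested genes, 17.3% were called higher and 13% lower in Eos+ Tregs against Tconv. These shares were 8.76% and 5.89% in Eos- Tregs against Tconv, and 9.82% and 6.45% in Eos+ against Eos- Tregs. Among other cell types, 7 B cell markers summed to 39.8 to 153 CPM for Eos+ Tregs, 3.53 to 26.3 for Eos- Tregs and 8.6 to 51.7 for Tconv, and 7 myeloid markers to 17.4 to 108, 3.77 to 60.1 and 15.5 to 42.1 CPM. None of these 14 markers was at 0 in a whole group. Of the 6 B cell markers that could be tested, 1 was called higher in Eos+ Tregs than in Tconv and 2 higher than in Eos- Tregs. Of the myeloid markers 1 was called higher and 1 lower in Eos+ Tregs than in Tconv, and 1 was higher than in Eos- Tregs. The 6 markers of CD8 and double-positive cells summed to 39.7 to 297, 29.7 to 325 and 69 to 284 CPM. Number 1, the number with low Foxp3, was the highest library of each group for the B cell and myeloid sums. For the CD8 and double-positive sum it was the highest in both Treg groups (297 and 325 CPM) but not in Tconv (259 CPM). The 6 thymic epithelial markers summed to 23.5 to 39.4, 10.9 to 15.2 and 6.28 to 8.76 CPM, with Krt5 and Foxn1 at 0 in all Eos- Treg and Tconv libraries and Psmb11 at 0 in all Eos- Treg libraries. Most of each sum was Epcam, at 22.4 to 36.3, 10.1 to 15.1 and 6.28 to 7.65 CPM, and no other marker of this list passed 2.47 CPM. Of the 3 on the list that could be tested, 1 was higher in each Treg group than in Tconv. In Eos+ against Eos- Tregs 2 were higher. The part of such cells in the results below was not tested, and in bulk samples fewer cells of a type and less RNA per cell cannot be told apart.

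STAT5 binds DNA at the palindrome TTCNNNGAA, which reads the same on both strands. It was searched in the RefSeq promoter windows of GRCm38.p6, which run from 250 bases before to 50 bases after a gene's start. Of all 32851 windows 8.3% held a match, and 0.457% held 2 or more. Of the 9 members with a window (12 windows), Cish had 2 matches and Socs3 had 1, and the windows of Jak1, Jak3, Stat5a, Stat5b, Socs1, Pim1 and Pim2 had 0. The 3 matches are printed because they are all that the members' windows held. Each stretch of 30 bases reads 5′ to 3′ on the gene's strand, with the motif in capitals.
Cish, chr9:107296654-107296683, plus strand: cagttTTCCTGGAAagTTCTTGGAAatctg
Socs3, chr11:117969502-117969531, minus strand: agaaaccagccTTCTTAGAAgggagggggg
The 2 Cish motifs began at the first and the 12th base of the RefSeq transcript and lay in an exon and untranslated region of the GENCODE M21 annotation. The Socs3 motif began 154 bases before the RefSeq start and in no annotated exon of the gene. Its position, 117969512 to 117969520, was inside the span of the GENCODE M21 gene, 117966079 to 117970047. A match is a string of letters and was not measured as a binding site, and the other windows say only that these letters were absent from them.

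Sequence shared with other genes makes some members less certain than others. Stat5a and Stat5b are adjacent genes on chromosome 11 (Stat5b, 100780731 to 100850724, minus strand; Stat5a, 100859351 to 100885169, plus strand, mm10), and 8.52% of the 50-base words of Stat5a transcripts and 10.98% of those of Stat5b occurred in another gene, nearly all in the partner. Their expected counts were not whole in any of the 12 libraries, as RSEM divides reads that match more than 1 gene. Jak3 shared 6.53% of its words with Insl3, with which it overlaps on the same strand, and Insl3 reached at most 8.96 CPM. Pim1 shared 8.78% with Gm26885, a gene on the opposite strand that reached 17.7 CPM. The library kit does not mark strand, so reads from the stretch that Pim1 and Gm26885 share cannot be told apart, and the Pim1 levels below are uncertain to that extent. Cish shared 9.35% and Socs2 4.58% of their words with other genes, and the 2 genes that overlap Cish on the opposite strand stayed under 0.155 CPM. Socs1, Socs3 and Jak1 shared 0%, and Pim2 1.57%.

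Against Tconv, both Treg groups had more transcript of Cish, Socs1, Socs2, Stat5a, Jak3 and Pim1. Eos+ Tregs in addition had more Socs3 and less Pim2, and Eos- Tregs had more Stat5b. In Eos+ Tregs 7 of the 10 members rose and 1 fell, where 30.3% of all tested genes were called, 17.3% higher and 13% lower. In Eos- Tregs 7 rose and 0 fell, where 14.6% were called, 8.76% higher and 5.89% lower. Both comparisons use the same Tconv libraries. Between the Treg groups, Cish and Socs2 were higher and Jak1 lower in Eos+ Tregs, 3 of 10 members where 16.3% of all tested genes were called, 9.82% higher and 6.45% lower. With the library number as a block, 6 members were called between the Treg groups, as Socs3, Jak3 and Pim1 were also called higher. That fit called 3498 of all 15361 tested genes in this comparison, against 2500 without the block. The groups did not overlap in 6, 6 and 2 members in the 3 comparisons, where 33.1%, 20.1% and 20% of all tested genes had groups that did not overlap. The median log2 change of the members was 1.11, 0.82 and 0.23 in the 3 comparisons in that order, and that of all tested genes -0.008, -0.012 and 0.003. Without the libraries numbered 1 the members called were 8, 6 and 2, in a fit that called 4127, 2410 and 2294 genes in all. Calls are an adjusted p under 0.05 in edgeR's quasi-likelihood test.

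**Figure D1:**
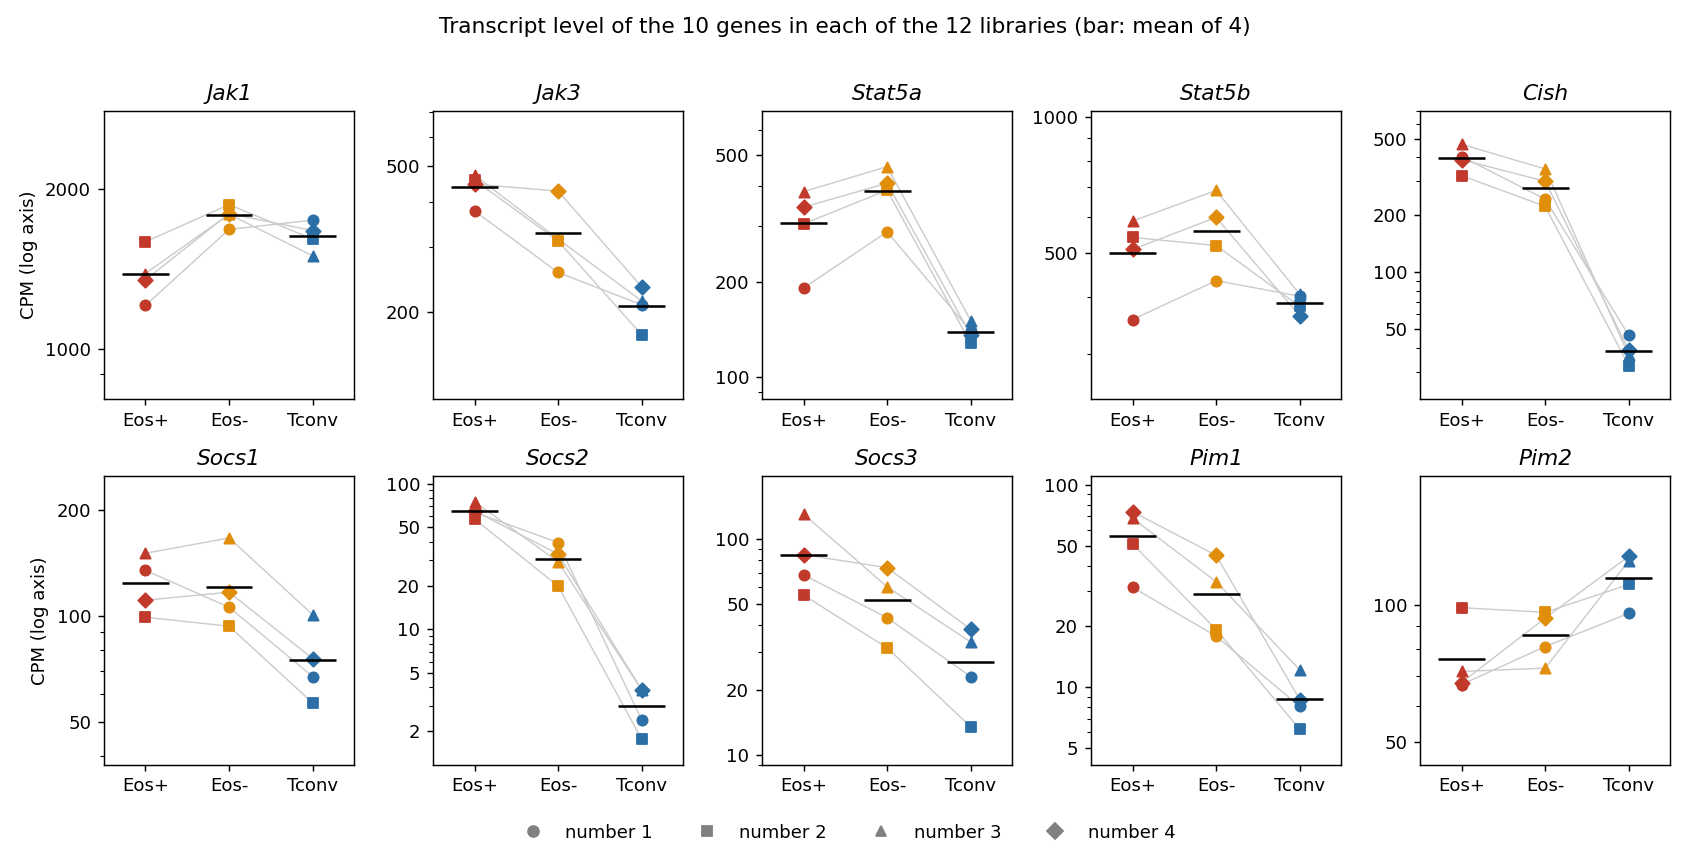
CPM (log axis, a scale of its own per gene) of the 10 genes in each of the 12 libraries, with grey lines joining libraries of the same number and black bars at the mean of 4. Cish ran from 32.3 to 46.6 CPM in Tconv and from 221 to 467 CPM in the Tregs, Socs2 from 1.77 to 3.86 and from 19.8 to 75, while the Treg and Tconv ranges of Jak1 and of Pim2 overlapped.

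Transcripts of the ligands were at low levels. Of the 7 cytokine genes Il2, Il4, Il7, Il9, Il15, Il21 and Tslp, 4 had enough counts to be tested, and Il9 was at 0 in every library. Tslp was listed with the others although the TSLP receptor does not hold the common gamma chain. Il2 averaged 0.29, 0.288 and 0.386 CPM in Eos+ Tregs, Eos- Tregs and Tconv. Il21, a helper cell cytokine, had the highest mean, 7.59 ± 2.92 CPM in Tconv against 0.585 ± 1.08 in Eos+ and 0.76 ± 1.3 in Eos- Tregs (SD, n = 4), differences that did not pass (edgeR adjusted p = 0.0942 and 0.178). Il4 fell in Eos+ Tregs, to 0.106 ± 0.0968 from 1.99 ± 0.585 CPM in Tconv (SD, n = 4, edgeR adjusted p = 0.0154). Its log2 change was -4.19, and -4.79 without Eos+ Treg replicate 1. Of the 4 tested genes, 0 were called by edgeR in Eos- Tregs against Tconv, where 2 had an unadjusted p under 0.05, 2 were called with the block, 1 by DESeq2 and 2 by limma-voom. In Eos+ against Eos- Tregs 0 were called by edgeR, 1 had an unadjusted p under 0.05, 0 were called with the block or by DESeq2 and 1 by limma-voom. The block called 3 in Eos+ Tregs against Tconv, with Il21 lower and Il15 higher besides Il4, and the 2 it called in Eos- Tregs were Il4 and Il21, both lower. Without Eos+ Treg replicate 1, 2 were called lower in Eos+ Tregs against Tconv. The median log2 change of the 4 was -2.05, -1.65 and -0.15 in the 3 comparisons, where 30.3%, 14.6% and 16.3% of all tested genes were called.

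Among the receptors, Il2ra, the chain that gives the interleukin-2 receptor its high affinity, stood at 538, 402, 642 and 602 CPM in the Eos+ Treg libraries numbered 1 to 4. In Eos- Tregs it was 496, 355, 553 and 554 CPM, and in Tconv 30, 9.62, 9.26 and 18.2. The Treg groups overlapped each other and both lay far above Tconv, while between them the log2 difference was 0.16 ± 0.31 (SE, edgeR adjusted p = 0.794). Il2rb, the signalling chain that carries JAK1, was 5.58-fold and 5.1-fold higher in Eos+ and Eos- Tregs than in Tconv (edgeR adjusted p = 2.39e-06 and 1.26e-05). It was 1481 CPM in the mean of Eos+ Tregs and 1354 CPM in Eos- Tregs (edgeR adjusted p = 0.727). Il2rg, the common gamma chain that carries JAK3, was the most abundant of the 3 by counts in every library of each group. It differed less from Tconv in both Treg groups than Il2ra or Il2rb. Its difference between the Treg groups was as small as that of Il2rb (log2 change -0.13 against 0.13). Its level was 1684 to 1997 CPM for Eos+ Tregs, 1849 to 2284 for Eos- Tregs and 2183 to 2410 for Tconv, 1.24-fold lower in Eos+ Tregs than in Tconv (edgeR adjusted p = 0.018).

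Of all 9 receptor chains listed, 6 rose and 1 fell in Eos+ Tregs against Tconv, 4 rose and 1 fell in Eos- Tregs against Tconv, and 3 rose in Eos+ against Eos- Tregs, with median log2 changes of 0.51, 0.04 and 0.16. The share of all tested genes called was 30.3%, 14.6% and 16.3% in the 3 comparisons. With the block Il15ra, a chain that binds interleukin-15, was also higher in Eos+ than in Eos- Tregs (edgeR adjusted p = 0.0697, and 0.0492 with the block). The 3 called without it were Il7r, Il9r and Crlf2, the ligand-binding chains for interleukin-7, interleukin-9 and TSLP. Il7r was 478, 279, 238 and 250 CPM for Eos+ Tregs, 234, 76.7, 59.7 and 96.4 for Eos- Tregs and 444, 398, 290 and 500 for Tconv. It was thus 3.5-fold lower in Eos- Tregs than in Tconv (edgeR adjusted p = 0.00679) and 2.67-fold higher in Eos+ than in Eos- Tregs (edgeR adjusted p = 0.0218). Dropping number 1 of Eos+ Tregs, or number 2, 3 or 4 of Eos- Tregs, ended the second call (edgeR adjusted p = 0.0555 to 0.068), as did a fit of the 2 groups alone (0.0508). Il9r was 9.62 to 26.7 CPM in Eos+ Tregs and at most 4.65 CPM elsewhere (Eos+ against Eos- Tregs, edgeR adjusted p = 0.0235). Dropping number 2 or 3 of either Treg group, or number 4 of Eos- Tregs, ended that call (edgeR adjusted p = 0.0517 to 0.069). Its log2 change was 3.30, and 3.97 with Eos- Treg replicate 1 dropped. Crlf2 was 20.6 against 14.3 CPM (edgeR adjusted p = 0.0284), a call lost without the libraries numbered 1 (0.101 by the same test), with the weaker filter (0.0557) and in 5 of 8 fits without 1 library. When number 2 or 3 of Eos- Tregs was dropped, 0 of the 9 chains were called between the Treg groups, and 1 when number 1 or 3 of Eos+ Tregs was dropped. Those fits called 1910, 1917, 2046 and 2059 genes in all, against 2500 with all libraries.

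The 2 kinases did not follow each other: Jak3 rose in both Treg groups against Tconv, and Jak1 was lower in Eos+ than in Eos- Tregs. Jak3 (chromosome 8, 71676296 to 71690575, mm10) was 377, 458, 472 and 446 CPM in the Eos+ Treg libraries numbered 1 to 4, 256, 312, 316 and 427 in Eos- Tregs, and 209, 173, 214 and 234 in Tconv. Every Treg library was above every Tconv library, by 2.11-fold in the fit for Eos+ Tregs (log2 change 1.08 ± 0.14 SE, edgeR adjusted p = 9.74e-05) and by 1.58-fold for Eos- Tregs (0.66 ± 0.14, edgeR adjusted p = 0.00785). Between the Treg groups Jak3 was higher in Eos+ Tregs in 4 of 4 numbers, with a log2 difference of 0.42 ± 0.14 (SE) that did not pass (edgeR adjusted p = 0.0642). It passed with the number as a block (adjusted p = 0.0168), and also when Eos- Treg replicate 4, the highest library of its group, was dropped (adjusted p = 0.00961).

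Jak1 (chromosome 4, 101152367 to 101265282) was 1208, 1590, 1386 and 1349 CPM for Eos+ Tregs, 1677, 1866, 1790 and 1795 for Eos- Tregs, and 1745, 1608, 1496 and 1668 for Tconv. Every Eos+ Treg library lay below every Eos- Treg library, 1.29-fold in the fit (log2 change -0.37 ± 0.09 SE, edgeR adjusted p = 0.0147), and this call held without the libraries numbered 1 (adjusted p = 0.035) and in 8 of 8 fits without 1 library. Against Tconv, Jak1 was lower in Eos+ Tregs in 4 of 4 numbers (log2 change -0.24 ± 0.09 SE, edgeR adjusted p = 0.066). With the block that difference passed (adjusted p = 0.0301), and dropping Eos+ Treg replicate 2 also let it pass (adjusted p = 0.019), whereas without the libraries numbered 1 it was -0.15 (adjusted p = 0.29). Eos- Tregs were not told apart from Tconv in Jak1 (edgeR adjusted p = 0.394).

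The ratio of the kinase counts within a library does not depend on library scaling. For Jak3 to Jak1 it was 0.288 to 0.341 for Eos+ Tregs, 0.152 to 0.238 for Eos- Tregs and 0.108 to 0.143 for Tconv. The 3 groups did not overlap in this ratio.

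Stat5a and Stat5b, which encode near-identical transcription factors, differed in how far they moved. Stat5a was 191, 304, 384 and 343 CPM for Eos+ Tregs, 287, 388, 460 and 408 for Eos- Tregs and 140, 128, 151 and 136 for Tconv. All Treg libraries lay above all Tconv libraries, and the lowest of each Treg group was number 1. Stat5a was 2.2-fold higher in Eos+ Tregs (log2 change 1.14 ± 0.19 SE, edgeR adjusted p = 0.000509) and 2.78-fold higher in Eos- Tregs (1.48 ± 0.19, edgeR adjusted p = 0.000229) than in Tconv. Without the libraries numbered 1 the log2 changes were 1.31 and 1.60. Between the Treg groups it was lower in Eos+ Tregs in 4 of 4 numbers, and the difference did not pass with or without the block (log2 change -0.34 ± 0.19 SE, edgeR adjusted p = 0.256).

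Stat5b was 357, 542, 589 and 510 CPM for Eos+ Tregs, 435, 520, 688 and 600 for Eos- Tregs and 402, 382, 406 and 364 for Tconv. Number 1 was again the lowest library of each Treg group, and in Eos+ Tregs it lay below all Tconv libraries. The rise in Eos- Tregs was 1.44-fold (log2 change 0.53 ± 0.16 SE, edgeR adjusted p = 0.0367). It was lost in 7 of 8 fits without 1 library, all but that without Eos- Treg replicate 1 (edgeR adjusted p = 0.0607 to 0.12 in the 7). In Eos+ Tregs the log2 change of 0.36 ± 0.16 (SE) did not pass (edgeR adjusted p = 0.0989). With the block it passed (adjusted p = 0.0455). Dropping Eos+ Treg replicate 1 alone gave an adjusted p of 0.0141, and dropping all 3 libraries of that number 0.00657. The Treg groups were not told apart in Stat5b (edgeR adjusted p = 0.525).

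The count ratio of Stat5a to Stat5b was 0.534 to 0.673 for Eos+ Tregs, 0.66 to 0.746 for Eos- Tregs and 0.335 to 0.373 for Tconv. Per base of the longest coding transcript, Stat5a made up 41.7% to 47.4%, 46.9% to 50% and 31% to 33.3% of the pair. The Treg and Tconv libraries did not overlap in this share, while the Treg groups did.

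**Figure D2:**
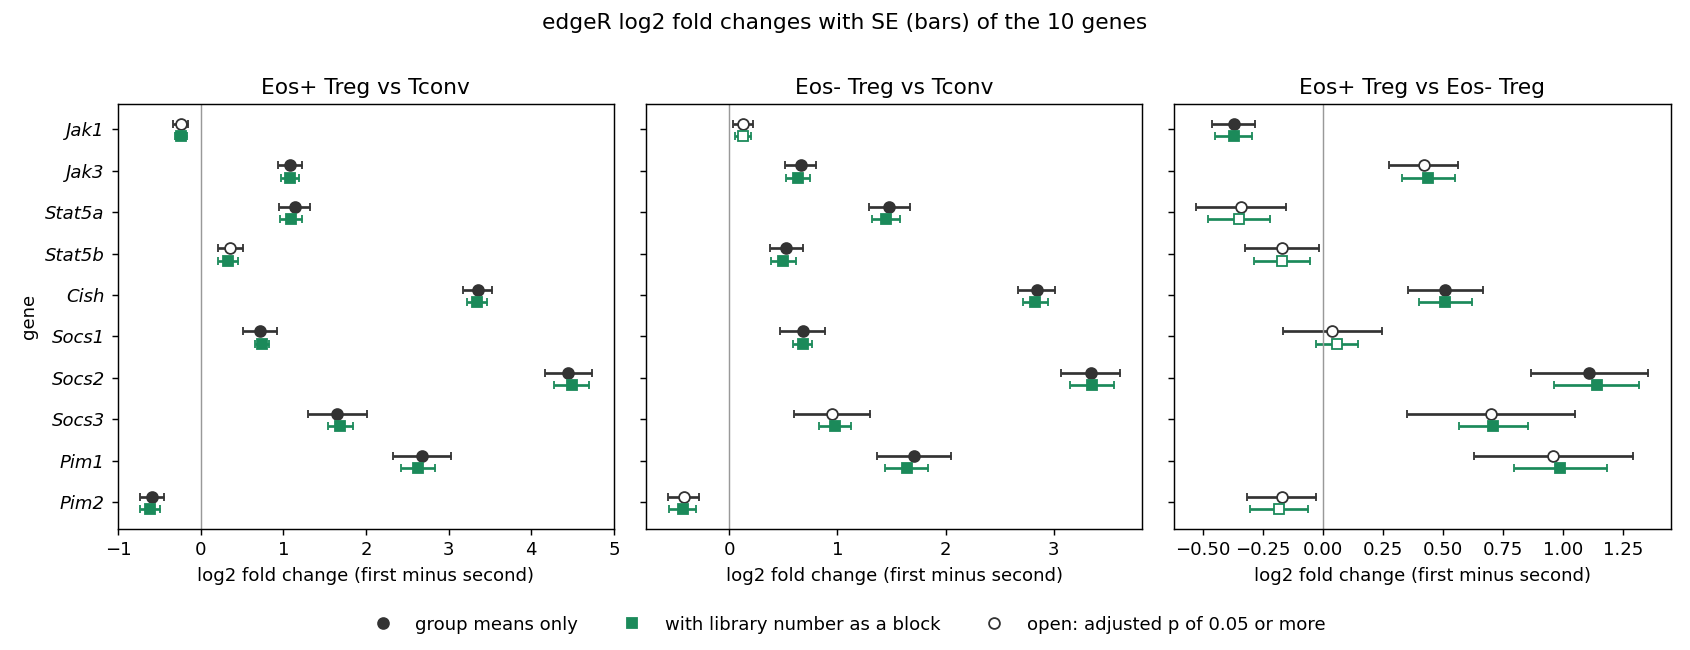
Log2 fold changes of the 10 genes in the 3 comparisons (first group minus second, each panel with a scale of its own), as fitted by edgeR from group means (circles) and with library number as a block (squares), with SE as bars and open symbols for an adjusted p of 0.05 or more. The estimates of the 2 fits lie close together, and Socs3, Jak3 and Pim1 are open circles but filled squares in Eos+ against Eos- Tregs.

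Against Tconv, the feedback inhibitors Socs2 and Cish had the largest changes among the members, while those of Socs3 and Socs1 were smaller than that of Pim1. Cish (chromosome 9, 107296026 to 107302784), whose SH2-domain protein binds activated cytokine receptors and is a classic product of STAT5 activity, was 403, 320, 467 and 388 CPM in Eos+ Tregs. It was 241, 221, 347 and 299 CPM in Eos- Tregs and 46.6, 32.3, 36.7 and 39 in Tconv. No Treg library came near the Tconv range, with a 10.2-fold rise in Eos+ Tregs (log2 change 3.35 ± 0.17 SE, edgeR adjusted p = 4.39e-08) and a 7.16-fold rise in Eos- Tregs (2.84 ± 0.17, edgeR adjusted p = 4.09e-07). Within each number Cish was 1.3 to 1.67 times as high in Eos+ as in Eos- Tregs, but the groups overlapped, as number 2 of Eos+ Tregs lay below number 3 of Eos- Tregs. The fitted difference was 1.42-fold (log2 change 0.51 ± 0.16 SE, edgeR adjusted p = 0.0412). This call ended without the libraries numbered 1 (adjusted p = 0.127) and in a fit of the 2 groups alone (adjusted p = 0.0713). Of the 8 fits without 1 library, the call held when number 2 of Eos+ Tregs or number 3 of Eos- Tregs was dropped and ended in the other 6 (edgeR adjusted p = 0.0604 to 0.122), with log2 changes of 0.41 to 0.63.

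Socs2 (chromosome 10, 95385362 to 95417180), a substrate receptor of a ubiquitin ligase and best known as a brake on growth hormone signalling, had the largest fold change of the 10 against Tconv. Its level was 63.6, 57.2, 75 and 65 CPM for Eos+ Tregs, 39.4, 19.8, 29.1 and 32.8 for Eos- Tregs, and 2.39, 1.77, 3.85 and 3.86 for Tconv. The 3 groups did not overlap. Against Tconv it was 21.8-fold higher in Eos+ Tregs (log2 change 4.45 ± 0.28 SE, edgeR adjusted p = 2.17e-07) and 10.1-fold higher in Eos- Tregs (3.34 ± 0.27, edgeR adjusted p = 5.85e-06). Between the Treg groups it was 2.15-fold higher in Eos+ Tregs (1.11 ± 0.24, edgeR adjusted p = 0.0077). This held in 8 of 8 fits without 1 library and without the libraries numbered 1 (adjusted p = 0.0116). The count ratio of Socs2 to Cish was 0.158 to 0.179 for Eos+ Tregs, 0.0839 to 0.164 for Eos- Tregs and 0.0512 to 0.105 for Tconv, and it was narrowest in Eos+ Tregs.

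Socs1 (chromosome 16, 10782240 to 10785536), which blocks JAK catalytic activity directly, rose in both Treg groups to about the same level. It was 135, 99.3, 151 and 111 CPM for Eos+ Tregs, 106, 93.6, 167 and 117 for Eos- Tregs, and 67.3, 56.6, 101 and 75.7 for Tconv. The groups overlapped, and number 3 was the highest and number 2 the lowest library in each of them. Within a number the Treg level was 1.47 to 2.01 times the Tconv level for Eos+ Tregs and 1.54 to 1.65 times for Eos- Tregs. The log2 changes of 0.72 ± 0.21 and 0.68 ± 0.21 (SE) had edgeR adjusted p-values of 0.0185 and 0.0431, and 0.0986 and 0.0947 without the libraries numbered 1. The first call also ended when Tconv replicate 1 or 2 or Eos+ Treg replicate 3 was dropped (edgeR adjusted p = 0.0533 to 0.0584). The second ended when Tconv replicate 1, 2 or 4 or Eos- Treg replicate 3 or 4 was dropped (edgeR adjusted p = 0.0774 to 0.123), and in a fit of the 2 groups alone (0.0511). Between the Treg groups the difference was 0.04 ± 0.21 on the log2 scale (SE, edgeR adjusted p = 0.936), and Eos+ Tregs were the higher group in 2 of 4 numbers.

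Socs3 (chromosome 11, 117966079 to 117970047), which blocks JAKs bound to gp130-type receptors and is a textbook target of STAT3, was 68.4, 55.1, 131 and 84.9 CPM in Eos+ Tregs. It was 43.3, 31.4, 60.2 and 73.9 CPM in Eos- Tregs and 23.1, 13.5, 33.4 and 38.3 in Tconv. Eos+ Tregs lay above Tconv in every library, 3.13-fold in the fit (log2 change 1.65 ± 0.36 SE, edgeR adjusted p = 0.00351), whereas Eos- Tregs overlapped both other groups. Within each number Socs3 was highest in Eos+ Tregs and lowest in Tconv, in 4 of 4 numbers. The differences of Eos- Tregs from Tconv (0.95 ± 0.35) and of Eos+ from Eos- Tregs (0.70 ± 0.35) did not pass without the block (edgeR adjusted p = 0.0943 and 0.206) and passed with it (edgeR adjusted p = 0.00104 and 0.00569).

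Pim1 and Pim2 encode related serine/threonine kinases that promote survival and translation and are known targets of STAT5, and in Eos+ Tregs against Tconv they moved in opposite directions. Pim1 (chromosome 17, 29490753 to 29496112) was 31.2, 51.2, 68.5 and 73.8 CPM for Eos+ Tregs, 17.9, 19.3, 33.3 and 44.9 for Eos- Tregs, and 8.04, 6.21, 12.2 and 8.7 for Tconv. Both Treg groups lay wholly above Tconv and overlapped each other. The rise against Tconv was 6.39-fold in Eos+ Tregs (log2 change 2.68 ± 0.35 SE, edgeR adjusted p = 8.36e-05) and 3.28-fold in Eos- Tregs (1.71 ± 0.34, edgeR adjusted p = 0.00458). Within each number Pim1 was 1.64 to 2.65 times as high in Eos+ as in Eos- Tregs. That difference (0.96 ± 0.33) had an edgeR adjusted p of 0.0672, and of 0.00458 with the block. It also passed when number 1 of Eos+ Tregs or number 4 of Eos- Tregs was dropped (edgeR adjusted p = 0.0294 and 0.0261).

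Pim2 (chromosome X, 7878262 to 7883432) was 66.9, 98.7, 71.5 and 67.6 CPM for Eos+ Tregs, 81.1, 96.4, 72.7 and 93.6 for Eos- Tregs and 95.9, 111, 125 and 128 for Tconv. It was below the Tconv library of the same number in all 8 Treg libraries, although number 2 of both Treg groups reached into the Tconv range. The fall was 1.51-fold in Eos+ Tregs (log2 change -0.59 ± 0.14 SE, edgeR adjusted p = 0.00674). In Eos- Tregs the log2 change of -0.42 ± 0.14 (SE) had an edgeR adjusted p of 0.0677, and of 0.0308 with the block. The Treg groups were not told apart (edgeR adjusted p = 0.471). The count ratio of Pim1 to Pim2 was 0.466 to 1.09 for Eos+ Tregs, 0.2 to 0.479 for Eos- Tregs and 0.056 to 0.0975 for Tconv.

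**Figure D3:**
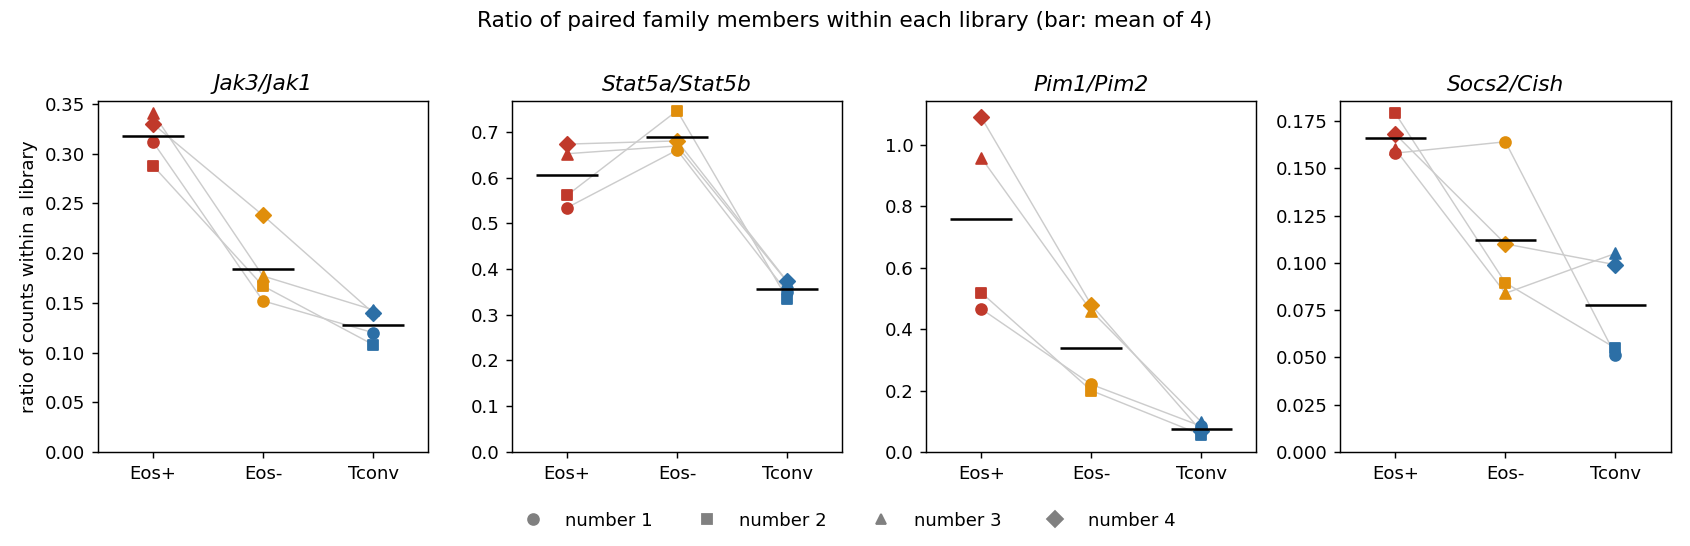
Count ratios of Jak3 to Jak1, Stat5a to Stat5b, Pim1 to Pim2 and Socs2 to Cish within each of the 12 libraries, with grey lines joining libraries of the same number and black bars at the mean of 4. Jak3 to Jak1 separates the 3 groups (lowest Eos+ Treg library 0.288, highest Eos- Treg library 0.238), whereas Stat5a to Stat5b separates Tregs from Tconv only.

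The share of the spread inside the groups that followed the library number was highest for Socs1, Socs3 and Pim1. Part of this share arises under any grouping of the libraries, so it is given beside that of all tested genes. Of the within-group sum of squares of log2 CPM, 90.1% for Socs1, 88.9% for Socs3 and 75.6% for Pim1 lay between numbers, where the median over all tested genes was 47.9%. For Stat5a, Socs2, Cish, Stat5b and Jak3 the share was 54.9% to 66.1%, for Pim2 44.5% and for Jak1 30.5%. Number 2 was low in Socs3 (mean deviation -0.70 on the log2 scale), Socs2 (-0.47), Socs1 (-0.34) and Cish (-0.28), and number 1 was low in Pim1 (-0.48), Stat5a (-0.34) and Stat5b (-0.25). Numbers 3 and 4 were high in Pim1 (0.40 and 0.41) and Socs3 (0.46 and 0.42).

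Immediate early genes, known to respond quickly to stimulation and to tissue handling, also varied with the number. Of 9 such genes, 4 were higher in Eos+ Tregs than in Tconv, where 17.3% of all tested genes were called higher. In Eos- Tregs 1 was higher than in Tconv (8.76% of all tested genes), and 1 was higher in Eos+ than in Eos- Tregs (9.82%). In these comparisons 0 of the 9 were called lower. Their summed level was 4986, 6987, 8691 and 7196 CPM in the Eos+ Treg libraries numbered 1 to 4, 4056, 4586, 6578 and 6582 in Eos- Tregs and 3471, 3217, 5570 and 4937 in Tconv. Numbers 3 and 4 were thus the 2 highest of each group, as they were for Socs3. The part of these genes in the Socs3, Socs1 and Pim1 differences was not tested.

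**Figure D4:**
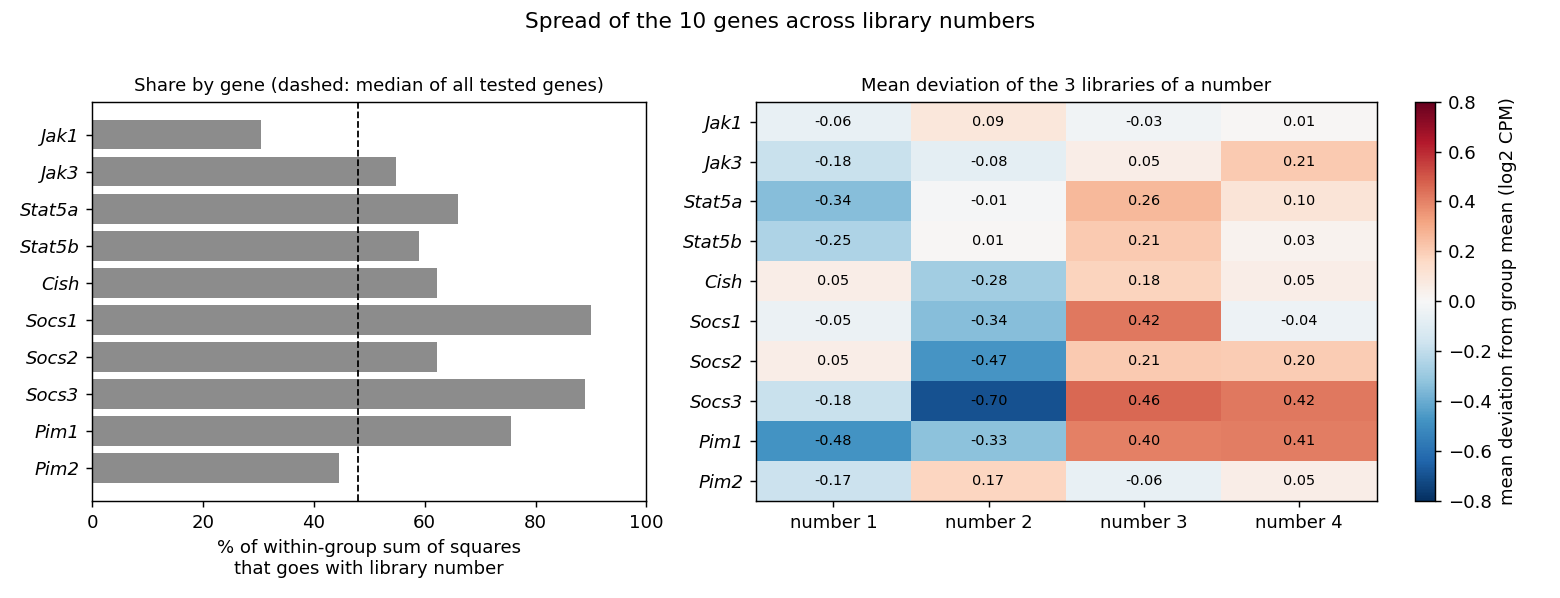
Left, share of the within-group sum of squares of log2 CPM that lay between library numbers, per gene, with a dashed line at 47.9%, the median of all tested genes. Right, mean deviation from the group means (log2 CPM) of the 3 libraries of each number: Socs3 and Pim1 are high in numbers 3 and 4, and Stat5a and Stat5b are lowest in number 1.

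Other genes of the same families also differed. Of 12 further JAK, STAT, SOCS and Pim genes, 6 rose and 1 fell in Eos+ Tregs against Tconv, 6 rose and 0 fell in Eos- Tregs against Tconv, and 3 rose and 0 fell in Eos+ against Eos- Tregs, with median log2 changes of 0.31, 0.41 and -0.07. Among all tested genes 30.3%, 14.6% and 16.3% were called in these comparisons, and 5571, 3300 and 3498 of the 15361 with the block. With the block the counts of the 12 were 7 higher and 1 lower, 8 and 0, and 3 and 2. When Tconv replicate 1 was dropped, 4 rose and 0 fell in Eos+ Tregs against Tconv. That fit called 4057 genes in all, against 4655 with all libraries. Socs5, a less studied relative of Socs1, was graded like Socs2. It stood at 26.1, 36.1, 36.2 and 35.9 CPM for Eos+ Tregs, 12, 22.7, 19.1 and 17.6 for Eos- Tregs and 9.35, 9.4, 9.63 and 8.25 for Tconv. The 3 groups did not overlap, and Eos+ exceeded Eos- Tregs by 1.88-fold (edgeR adjusted p = 0.00426). Stat4, which relays interleukin-12, was 195, 128 and 68.3 CPM in the means of Eos+ Tregs, Eos- Tregs and Tconv (Eos+ against Eos- Tregs, edgeR adjusted p = 0.00285). Stat3, the main relay of interleukin-6 and interleukin-10, was 2.27-fold and 1.91-fold higher in Eos+ and Eos- Tregs than in Tconv (edgeR adjusted p = 2.41e-05 and 0.000469). It shares 72 exon bases with Stat5a on the other strand. Stat6, the relay of interleukin-4, was 1.46-fold and 1.37-fold higher in the same order (edgeR adjusted p = 0.000469 and 0.00434). Stat2, a relay of type I interferon, rose 1.62-fold in Eos- Tregs against Tconv (edgeR adjusted p = 0.00763). It was lower in Eos+ than in Eos- Tregs in 4 of 4 numbers, a log2 change of -0.41 (edgeR adjusted p = 0.0814, and 0.00618 with the block). Against Tconv its log2 change in Eos+ Tregs was 0.28 (edgeR adjusted p = 0.185, and 0.034 with the block). The block also called Jak2, lower in Eos+ than in Eos- Tregs and higher in Eos- Tregs than in Tconv (edgeR adjusted p = 0.0293 and 0.035), and Pim3, higher in Eos- Tregs than in Tconv (edgeR adjusted p = 0.0298). Tyk2 was 172 against 126 CPM in Eos+ and Eos- Tregs (edgeR adjusted p = 0.027), a call lost without the libraries numbered 1 (adjusted p = 0.0799). Dropping number 2 or 3 of Eos+ Tregs, or number 1 or 2 of Eos- Tregs, also ended it (edgeR adjusted p = 0.0614 to 0.0817), as did a fit of the 2 groups alone (0.0708).

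Inhibitors outside the SOCS family were split. Of 11 such genes, 3 rose and 4 fell in Eos+ Tregs against Tconv, 3 rose and 1 fell in Eos- Tregs against Tconv, and 2 rose and 0 fell in Eos+ against Eos- Tregs, with median log2 changes of -0.19, -0.08 and -0.12. The shares of all tested genes called were 30.3%, 14.6% and 16.3%. With the block the counts of the 11 were 3 higher and 5 lower, 3 and 3, and 3 and 1. The 3 that rose in Eos- Tregs were Pias3, Ptpn1 and Pias4, and the last 2 were each lost in 6 of 8 fits without 1 library (edgeR adjusted p = 0.063 to 0.106 for Ptpn1 and 0.0599 to 0.0869 for Pias4). When Tconv replicate 1, 2 or 4 or number 3 or 4 of Eos- Tregs was dropped, 1 rose and 1 fell. Those fits called 1574 to 1799 genes in all, against 2249 with all libraries. Ptpn6, the gene of the phosphatase SHP-1, was 381 to 509 CPM for Eos+ Tregs, 492 to 651 for Eos- Tregs and 742 to 798 for Tconv. It was 1.72-fold and 1.39-fold lower in Eos+ and Eos- Tregs than in Tconv (edgeR adjusted p = 0.000114 and 0.00945). Pias3, named for its inhibition of STAT3, was 30.7 to 37.4 CPM for Eos+ Tregs, 17 to 22.8 for Eos- Tregs and 10.8 to 13.1 for Tconv, without overlap (Eos+ against Eos- Tregs, edgeR adjusted p = 0.00113). Sh2b3, the gene of the adaptor LNK, was 1.41-fold higher in Eos+ than in Eos- Tregs (edgeR adjusted p = 0.00998), and Ptpn1, a phosphatase of JAK2 and TYK2, 1.52-fold higher in Eos+ Tregs than in Tconv (edgeR adjusted p = 0.000744). Ptpn1 was also higher in Eos+ than in Eos- Tregs with the block (edgeR adjusted p = 0.128, and 0.0363 with the block). The other genes that the block added were Asb2, lower in both Treg groups than in Tconv (edgeR adjusted p = 0.0213 and 0.0179), and Ptprc, lower in Eos- Tregs than in Tconv and in Eos+ than in Eos- Tregs (edgeR adjusted p = 0.0192 and 0.0134).

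Of 14 further genes known as STAT5 targets, a list that includes Il2ra and Foxp3, 8 rose and 3 fell in Eos+ Tregs against Tconv and 6 rose and 1 fell in Eos- Tregs against Tconv. Between the Treg groups 2 rose and 3 fell, and the median log2 changes were 0.57, 0.58 and -0.07. The list does not say for each gene whether STAT5 raises or lowers it. Among all tested genes 30.3%, 14.6% and 16.3% were called in the 3 comparisons. With the block the counts of the 14 were 9 higher and 4 lower, 8 and 2, and 2 and 4. Nfil3, a transcription factor of helper and innate cells, was 31.4 to 65.5 CPM in Eos+ Tregs against 3.95 to 13 in Eos- Tregs, 6.06-fold higher (edgeR adjusted p = 0.00327). In Eos- Tregs against Tconv its log2 change was 0.82 (edgeR adjusted p = 0.306, and 0.0484 with the block). Bcl2l1, which encodes Bcl-xL, was 103 to 161 against 83.1 to 90.5 CPM (edgeR adjusted p = 0.00186). Its relative Bcl2 was 269 to 342 against 515 to 722 CPM, 2.05-fold lower (edgeR adjusted p = 9.19e-05). The 2 survival genes thus moved in opposite directions, and for neither did the Treg groups overlap. Ccnd2, the gene of cyclin D2, was 610 to 954 against 1060 to 1361 CPM (edgeR adjusted p = 0.0287). That call ended without the libraries numbered 1 (adjusted p = 0.0703) and when number 1 or 2 of Eos+ Tregs, or number 3 or 4 of Eos- Tregs, was dropped (edgeR adjusted p = 0.0603 to 0.0819). Against Tconv, Ccnd2 had a log2 change of -0.38 in Eos+ Tregs (edgeR adjusted p = 0.0844, and 0.00361 with the block). The block also called Mcl1, a survival gene, higher in Eos- Tregs than in Tconv and lower in Eos+ than in Eos- Tregs (edgeR adjusted p = 0.0023 and 0.0157). It called Osm higher in Eos+ Tregs and Ccnd3 lower in Eos- Tregs, each against Tconv (edgeR adjusted p = 0.0391 and 0.0381). Without the block Osm was already called higher in Eos- Tregs than in Tconv (37.3 against 23.8 CPM, edgeR adjusted p = 0.00597). Ccnd3 was already called lower in Eos+ Tregs than in Tconv (edgeR adjusted p = 0.000114) and than in Eos- Tregs (edgeR adjusted p = 0.00386). Gzmb, which encodes granzyme B, was 1.05 to 14.3 CPM in the Treg libraries and 21.9 to 73.1 in Tconv. It was 7.84-fold lower in Eos- Tregs than in Tconv (edgeR adjusted p = 0.00406), and its log2 change of -2.97 was -3.61 without the libraries numbered 1. Lif, a cytokine gene, was 2.54 to 8.74 CPM in the Treg libraries and at most 1.03 in Tconv (edgeR adjusted p = 0.00302 and 0.0105 for Eos+ and Eos- Tregs). Its log2 changes of 3.64 and 3.34 were 4.57 and 4.27 without Tconv replicate 4. Of 7 genes of Pim kinase substrates and translation, 2 rose in Eos+ Tregs against Tconv, 0 were called by edgeR in Eos- Tregs against Tconv and 1 rose in Eos+ against Eos- Tregs, with median log2 changes of 0.35, 0.18 and -0.03. These counts stand beside the same shares of all tested genes, 30.3%, 14.6% and 16.3%. In Eos- Tregs against Tconv 2 of the 7 had an unadjusted p under 0.05, and 2 were called by DESeq2 and 0 by limma-voom. With the block 4, 2 and 2 were called, all higher, the added genes being the cell cycle inhibitors Cdkn1a and Cdkn1b and, in Eos- Tregs against Tconv, Eif4ebp1. The 2 that rose in Eos+ Tregs against Tconv were Eif4ebp1 and Bad, a pro-apoptotic gene, and Bad was lost when Tconv replicate 1 or 2 or Eos+ Treg replicate 2 was dropped (edgeR adjusted p = 0.0524 to 0.0546), which left 1. The gene called between the Treg groups was Eif4ebp1, a repressor of cap-dependent translation, at 18.8 to 25.6 against 11.6 to 14.5 CPM (edgeR adjusted p = 0.00314).

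Levels of different genes were compared as CPM per kilobase of the longest coding transcript. On this scale Jak1 was the highest of the 10 members in each group, at 282 ± 32.1, 363 ± 16 and 332 ± 21.4 in Eos+ Tregs, Eos- Tregs and Tconv (SD, n = 4). In Eos+ Tregs Cish followed at 138 ± 21.2, then Jak3 at 109 ± 10.5, Stat5b at 95.8 ± 19.2 and Stat5a at 78.5 ± 21.4. From Cish to Stat5a, the SD ranges of neighbours in this order overlapped. In Eos- Tregs Stat5b (108 ± 20.7), Stat5a (99.3 ± 18.6), Cish (97.2 ± 20.1) and Jak3 (81.5 ± 17.9) did not differ from their neighbours beyond the SDs. In Tconv the order after Jak1 was Stat5b at 74.6 ± 3.71, Pim2 at 56.2 ± 7.25, Jak3 at 51.7 ± 6.34 and Stat5a at 35.7 ± 2.48, and Cish was the seventh of 10 at 13.6 ± 2.1. There Pim2 and Jak3 lay within their SDs of each other. Socs2, at 1.34 ± 0.476, was last in Tconv. With all annotated exons of a gene as its length, the order changed at several places. Cish was the fourth of 10 in Eos+ Tregs and the eighth in Tconv, and Socs1 (25.9) stood above Stat5a (19.4) in Tconv.

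Across the 12 libraries, the transcripts most like Cish among 8624 genes with a mean of at least 10 CPM were Ctla4, a coinhibitory receptor (Pearson's r = 0.995), Lrrc32, which tethers latent TGF-beta (0.989), and Tnfrsf4, the costimulatory receptor OX40 (0.986). Those most like Socs2 were Ttc39b (0.992) and the cytokine receptor chains Il10rb (0.991) and Ifngr1 (0.991). For Socs1 they were Tns1 (0.932), Trib1 (0.909) and Eml3 (0.904), and for Socs3 Agpat4 (0.968), Trib1 (0.946) and Pnpla2 (0.944). These values of r describe the same 12 libraries in 3 groups, and most of the spread they rest on lies between the groups.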

How the data were processed

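RNA of sorted thymic CD4+ cells was sequenced in 12 libraries, 4 per group, from 1 ng of total RNA by template switching and tagmentation, per the labels' protocols. The values, as deposited, were RSEM expected counts of each gene, not scaled for depth or length. Per the submitters' processing notes the authors used cutadapt 1.18, STAR 2.7.0f and RSEM 1.3.1 with mm10; parameters and annotation release are not given in the sources used here. Positions and lengths came from GENCODE M21, which held all 55450 IDs. Replicate libraries differed beyond sampling noise in all 18 pairs (chi-square per degree of freedom 25.4 to 80.9). No label ties a replicate to an animal of its own, so p-values measure the spread between libraries, which may be technical.

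Expected counts were rounded and tested with edgeR 4.0.16 in R 4.3.3 (quasi-likelihood F test, TMM factors, filterByExpr, 1 mean per group over 12 libraries, two-sided), with Benjamini-Hochberg adjustment over 15361 genes per comparison. The SE is the log2 change divided by the square root of F. The code was tested on simulated counts. Alternatives were a block on the library number, RLE factors, a weaker filter, DESeq2 1.42.0, limma-voom (limma 3.58.1), fits on 2 groups, fits without each library and a fit without the libraries numbered 1. Deviations from the group means correlated at 0.138 to 0.318 in the 12 pairs of the same number and at -0.226 to 0.07 in the 36 other pairs, so the numbers were taken to pair libraries. Promoter windows came from RefSeq (GRCm38.p6).

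The members, gene lists and alternatives were chosen with earlier results of these data known. All 10 members and the 3 chains of the interleukin-2 receptor were named, with up to 4 called genes of the largest change per list and comparison (6 lists, 59 genes) and, for Cish and each of Socs1 to Socs3, the 3 most correlated genes. The text names some of those genes. Log2 CPM used a prior count of 2. Genes that only the block called in a comparison were named for it after their values were seen. There were 8 marker lists. The 6 proliferation markers summed to 92 to 271, 11.9 to 248 and 188 to 321 CPM and the 6 Treg markers to 2931 to 4100, 2043 to 3506 and 314 to 426 CPM in Eos+ Tregs, Eos- Tregs and Tconv.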

Additional observations from a re-analysis of the deposited data

Results flagged for a closer look

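A library stood far from the 3 others of its group for 6 of 114 sets of 4 values of the named genes on log2(CPM + 1), and chance gives about 5% of sets. None of the 6 was a member of the STAT5 set. Foxp3 was 53.3 CPM in Eos- Treg replicate 1 and 653 to 862 in the others of that group. Il9r was 9.62 CPM in Eos+ Treg replicate 4, with 23.7 to 26.7 in the others, and 4.65 CPM in Eos- Treg replicate 1, with 1.22 to 1.42 in the others. Socs5 was 26.1 CPM in Eos+ Treg replicate 1 against 35.9 to 36.2. In Tconv replicate 3, Stat2 was 162 CPM against 121 to 127 and Ccnd2 was 1323 CPM against 921 to 968.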

How the results depend on the processing

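Of 450 refits of a member in a comparison, 397 kept direction and side of the threshold, 26 lost the call, 22 gained it and 5 changed sign. The sign changes were those of Socs1 between the Treg groups, where no fit called it (log2 change -0.07 without the libraries numbered 1, and -0.07 to 0.23 in the 8 fits without 1 library, 4 of them below 0). Il2rb changed sign in the same comparison without Eos- Treg replicate 2 (log2 change -0.002, with up to 0.24 in the other such fits), also uncalled. Between the Treg groups the main fit, the replicate block, DESeq2 and limma-voom called 2500, 3498, 3227 and 2959 genes in all. The number of members called there was 3, and 6 with the replicate block, 5 with DESeq2 and 5 with limma-voom. It ranged from 2 to 4 in fits without 1 library, from 7 to 9 for Eos+ Tregs against Tconv and from 5 to 7 for Eos- Tregs against Tconv. With the replicate block the number was 10 and 9 in the last 2. Changed genes numbered 4655, 2249 and 2500 in the 3 comparisons, 5571, 3300 and 3498 with the replicate block, and 3882 to 4377, 1574 to 2884 and 1910 to 2936 in fits without 1 library. With the block no member lost its call. Why these counts moved was not tested. Foxp3 was not called against Tconv by limma-voom (adjusted p = 0.0793 and 0.11). Pim2 in Eos- Tregs and Jak1 in Eos+ Tregs, each against Tconv, passed with DESeq2 (adjusted p = 0.0348 and 0.0302).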
